A study of Homo sapiens with 18 samples.

Results

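Collagen chains and the enzymes and chaperone that modify, fold and cross-link them were followed in IMR90 cells, a line of human fetal lung fibroblasts, at the level of mRNA and of ribosome footprints. Members were chosen by name: every collagen chain symbol (COL, a number, A and a number) together with LOX, LOXL1 to LOXL4, P4HA1 to P4HA3, PLOD1 to PLOD3 and SERPINH1, provided that at least 50 reads fell on the gene over the 9 mRNA-seq libraries. Of 56 symbols that match by name, 38 reached that minimum, 26 chains of 44 and 12 of 12 modifying genes, out of 38716 symbols in the tables and 13502 with the same number of reads. COL4A4, with 50 reads, and COL8A2, with 133, were just inside, and COL9A2, COL17A1 and COL9A3, with 41, 40 and 38, were just outside. The rule uses no change between conditions, but it was set with earlier results of these data known.

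The libraries came from 3 conditions of IMR90 cells, and the study's Ribo-seq methods do not say whether all came from the same isolate. Young cells were low-passage and proliferating. Old cells were high-passage and had entered replicative senescence. For the ICM condition, cells of low passage received inflachromene, a compound directed at HMGB1 and HMGB2, which are DNA-binding proteins of chromatin. The study describes a treatment of several days, and the labels give neither dose nor duration. Each condition had 3 cultures, and each culture gave an mRNA-seq library and a Ribo-seq library. The study describes continuous passage of single isolates, and no transgene or knockout was involved. A vehicle-treated group is not among the libraries used here.

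Collagens are secreted proteins whose chains wind around one another into a helix, which requires glycine at a fixed place in a repeated Gly-X-Y unit. Inside the endoplasmic reticulum, prolyl hydroxylases modify proline so that the helix is stable at body temperature, lysyl hydroxylases modify lysine for later cross-links, and the chaperone HSP47, the product of SERPINH1, binds the folded helix. Outside the cell, lysyl oxidases start the cross-links that harden the matrix. Fibroblasts are the main makers of these proteins in the lung, and the chains of a given trimer combine in fixed proportion, as in type I, type IV, type V and type VI collagen.

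The repeat is visible in the coding sequence. Stretches of 27 bases are printed here for the chains COL4A1, COL5A1, COL6A3, COL12A1 and COL15A1, because they stand for the collagen classes with the different patterns described in the results. They were taken from the GENCODE coding sequence on GRCh37, read 5′ to 3′ on the coding strand, and capitals mark the glycine codons.
COL4A1 (exon 3, minus strand, chr13:110866336-110866362): GGTgaaagaGGCctcccgGGGttacaa
COL5A1 (exon 14, plus strand, chr9:137644447-137644473): GGAccagctGGCccgatgGGTctcaca
COL6A3 (exon 22, minus strand, chr2:238266469-238266495): GGAcccaaaGGAgaaaccGGTgacctc
COL12A1 (exon 57, minus strand, chr6:75811742-75811768): GGTcgccaaGGGatgaaaGGTgatgct
COL15A1 (exon 15, plus strand, chr9:101787228-101787254): GGAccccctGGAtctcctGGAgaggat
The classes differ in how long the repeat runs without a break. The longest run held 338 units in COL1A1, 339 in COL1A2, 343 in COL3A1 and 338 in COL5A1, against 87 in COL6A1 and COL6A2, 45 in COL6A3, 40 in COL4A1, 32 in COL12A1 and 30 in COL15A1. Gly-X-Y units covered 72.7% of the codons of COL1A1 and 78.6% of those of COL4A1, but 10.4% of COL6A3 and 8.13% of COL12A1.

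The mRNA-seq libraries held 7902427 to 14144455 reads on annotated mRNA, and the Ribo-seq libraries 46239 to 1718521 footprints on coding sequence (CDS), a 37.2-fold range. Levels are given in CPM, read counts scaled to the same total in every library. A count of 3 reads, taken as the limit of what a library can show, corresponded to 0.212 to 0.380 CPM in mRNA-seq and to 1.75 to 64.9 CPM in Ribo-seq. Of the Ribo-seq libraries, 3 stood apart. Coding sequence held 34.4% of the reads in young 1 and 15.0% in old 2, against 54.7 to 88.8% in the others, and reads of ICM 3 went in part against its label. The summed footprint level of 10 genes with low mRNA in ICM cells, a list chosen after the values were seen, was 3516 CPM in ICM 3, 1355 and 1187 in ICM 1 and ICM 2, and 7190 to 7777 in young cells. For 14 genes with high mRNA in ICM cells, chosen likewise, it was 1030 CPM in young 1 and 1147 in old 2, against 133 to 183 in the other young and old libraries and 5800 to 9682 in ICM cells. Ribo-seq results are therefore also given without these 3 libraries, and each library's value is given for the members that matter most. Markers were counted as over 1 CPM by their mean over the mRNA-seq libraries, not in each library. Fibroblast markers, 9 of 9 over 1 CPM, summed to 10086 to 10787 CPM in young, 10449 to 11987 in old and 5612 to 6072 in ICM cells. Smooth muscle markers, 5 of 5 over 1 CPM, summed to 951 to 1045, 1389 to 1420 and 172 to 174 CPM. Epithelial, endothelial and immune markers were over 1 CPM for 2 of 7, 1 of 6 and 1 of 5 genes, with sums of at most 66.8 CPM. The part of these marker levels in the results was not tested, and in bulk libraries fewer cells of a type and less RNA per cell cannot be told apart.

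Collagen chains took up a much smaller share of the mRNA in ICM cells. The 26 chains together made up 3.48, 3.92 and 4.10% of the mRNA-seq reads in young cells, 3.37, 2.93 and 3.52% in old cells and 1.41, 1.46 and 1.43% in ICM cells. All ICM libraries were below all others, while old and young cells overlapped. The means were 3.83 ± 0.321, 3.27 ± 0.306 and 1.43 ± 0.0231% (SD, n = 3). In log2 units the share was -1.42 in ICM against young cells, -1.19 in ICM against old cells and -0.23 in old against young cells, with exact permutation p-values of 0.1, 0.1 and 0.2. The smallest two-sided p that 3 against 3 cultures can give is 0.1, and the Benjamini-Hochberg values over the 12 summed comparisons were 0.133, 0.133 and 0.218. Without the type I and type III chains the differences were -1.24 in ICM against young and -0.99 in ICM against old cells.

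Footprints on chains were likewise fewest in ICM cells. Chains made up 5.98, 5.83 and 5.51% of the Ribo-seq CDS footprints in young cells, 4.67, 4.27 and 3.55% in old cells and 2.13, 2.15 and 3.86% in ICM cells. ICM 3, one of the libraries that stood apart, lay between the old libraries, and the young libraries lay above all others. The log2 differences were -1.15 in ICM against young (exact permutation p = 0.1), -0.48 in old against young (exact p = 0.1) and -0.67 in ICM against old cells (exact p = 0.2), and without young 1, old 2 and ICM 3 they were -1.41, -0.48 and -0.93.

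Against young cells, the summed share of the modifying enzymes and the chaperone did not have the same pattern as that of the chains, while both sums were lower in ICM than in old cells. The 12 genes made up 0.477, 0.503 and 0.532% of mRNA reads in young, 0.723, 0.720 and 0.717% in old and 0.498, 0.488 and 0.509% in ICM cells, so that old cells were above the others and ICM and young cells overlapped. The log2 differences were 0.52 in old against young (exact permutation p = 0.1), -0.02 in ICM against young (exact p = 0.8) and -0.53 in ICM against old cells (exact p = 0.1). In footprints the same genes took 0.641, 0.683 and 0.743% in young, 1.10, 1.09 and 1.09% in old and 0.836, 0.831 and 0.830% in ICM cells, with no overlap between any pair of conditions. The log2 differences were 0.67 in old against young, 0.27 in ICM against young and -0.39 in ICM against old cells, with exact p = 0.1 for each.

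**Figure D1:**
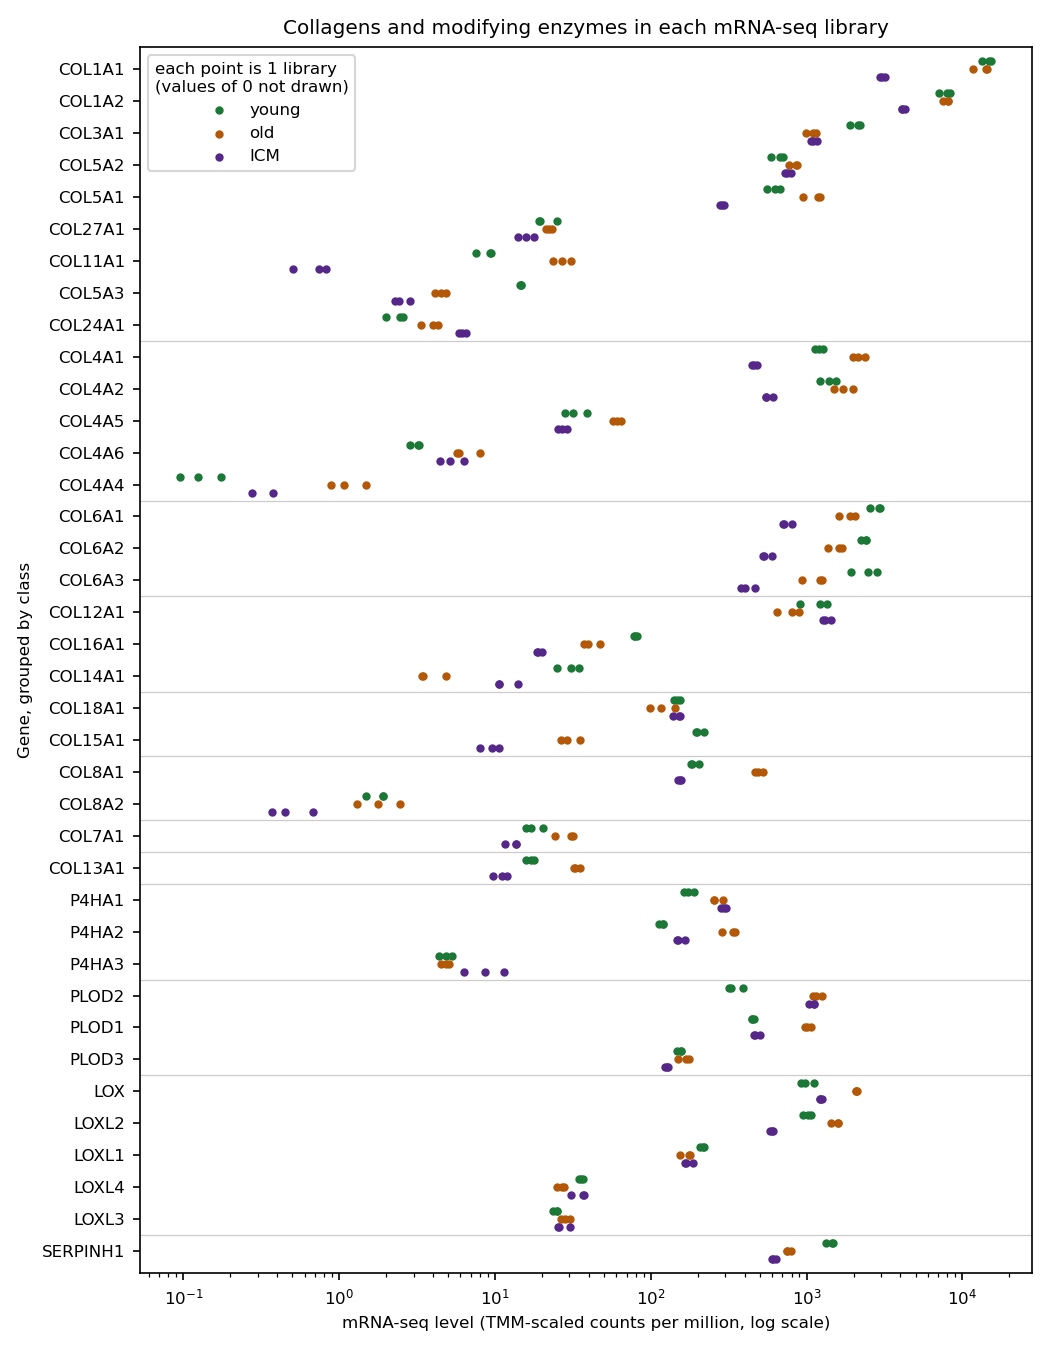
mRNA level of the 38 members in each of the 9 mRNA-seq libraries, in CPM on a log axis, with a point for each library coloured by condition and values of 0 left out. COL1A1 is the uppermost gene in young and old cells, at 11674 to 15352 CPM, and lies at 2962 to 3201 CPM in ICM cells, below COL1A2 at 4072 to 4257 CPM.

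Levels can be compared between genes only per length. Over the 9 mRNA-seq libraries, the mean CDS level per kilobase of coding sequence was highest for COL1A1 at 3328 CPM per kilobase, followed by COL1A2 at 2307, LOX at 956, SERPINH1 at 770, COL6A1 at 716, COL6A2 at 697, LOXL2 at 522 and PLOD2 at 488. This order over all libraries was not that of each condition. Young cells had COL1A1 at 4760, COL1A2 at 2736, SERPINH1 at 1166, COL6A1 at 1122, COL6A2 at 1107 and LOX at 651 CPM per kilobase. In old cells LOX, at 1351, was next after the type I chains at 4175 and 2661. In ICM cells COL1A2, at 1524, was above COL1A1, at 1048, and LOX at 864 and PLOD2 at 639 followed, the latter having 196 in young cells. The type I chains held the upper places in all conditions.

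Gene by gene, most chains fell in ICM cells, while old cells had similar numbers of members up and down. Changes were tested with edgeR's quasi-likelihood test, and a gene was called at a Benjamini-Hochberg adjusted p under 0.05 over all genes tested. Comparisons of ICM with young and of old with young use the same young libraries. Of the 37 members tested in mRNA-seq, COL4A4 being too low, 8 rose and 24 fell in ICM against young cells, where 34.9% of 13173 genes rose and 36.1% fell. In old against young cells 18 rose and 13 fell, where 32.4% of genes rose and 33.7% fell. Between ICM and old cells 6 were higher and 24 lower in ICM, where 30.7% of genes rose and 32.6% fell. The median log2 change of the members was -0.46 in ICM against young, 0.10 in old against young and -0.92 in ICM against old cells, beside -0.01 for all genes in each. Split by role, 20 of 25 chains fell and 3 rose in ICM against young cells with a median of -1.13, and 4 of 12 enzyme and chaperone genes fell and 5 rose with a median of 0.10. In old against young cells 10 chains fell and 11 rose with a median of 0.02, and 3 enzyme and chaperone genes fell and 7 rose with a median of 0.41.

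The calls crossed as follows, given as a description, since the share of all genes with each crossing was not counted. Against young cells, 10 members fell in both ICM and old cells, 7 rose in both, and 9 fell in ICM but rose in old cells: COL4A1, COL4A2, COL4A5, COL5A1, COL7A1, COL8A1, COL11A1, COL13A1 and LOXL2. No member rose in ICM and fell in old cells. A further 5 fell in ICM cells without a call in old cells, 3 fell and 2 rose in old cells without a call in ICM cells, and 1 rose in ICM cells alone by these calls, P4HA3. Each of the 9 members was also lower in ICM than in old cells, which follows from how they were picked and adds no separate result.

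**Figure D2:**
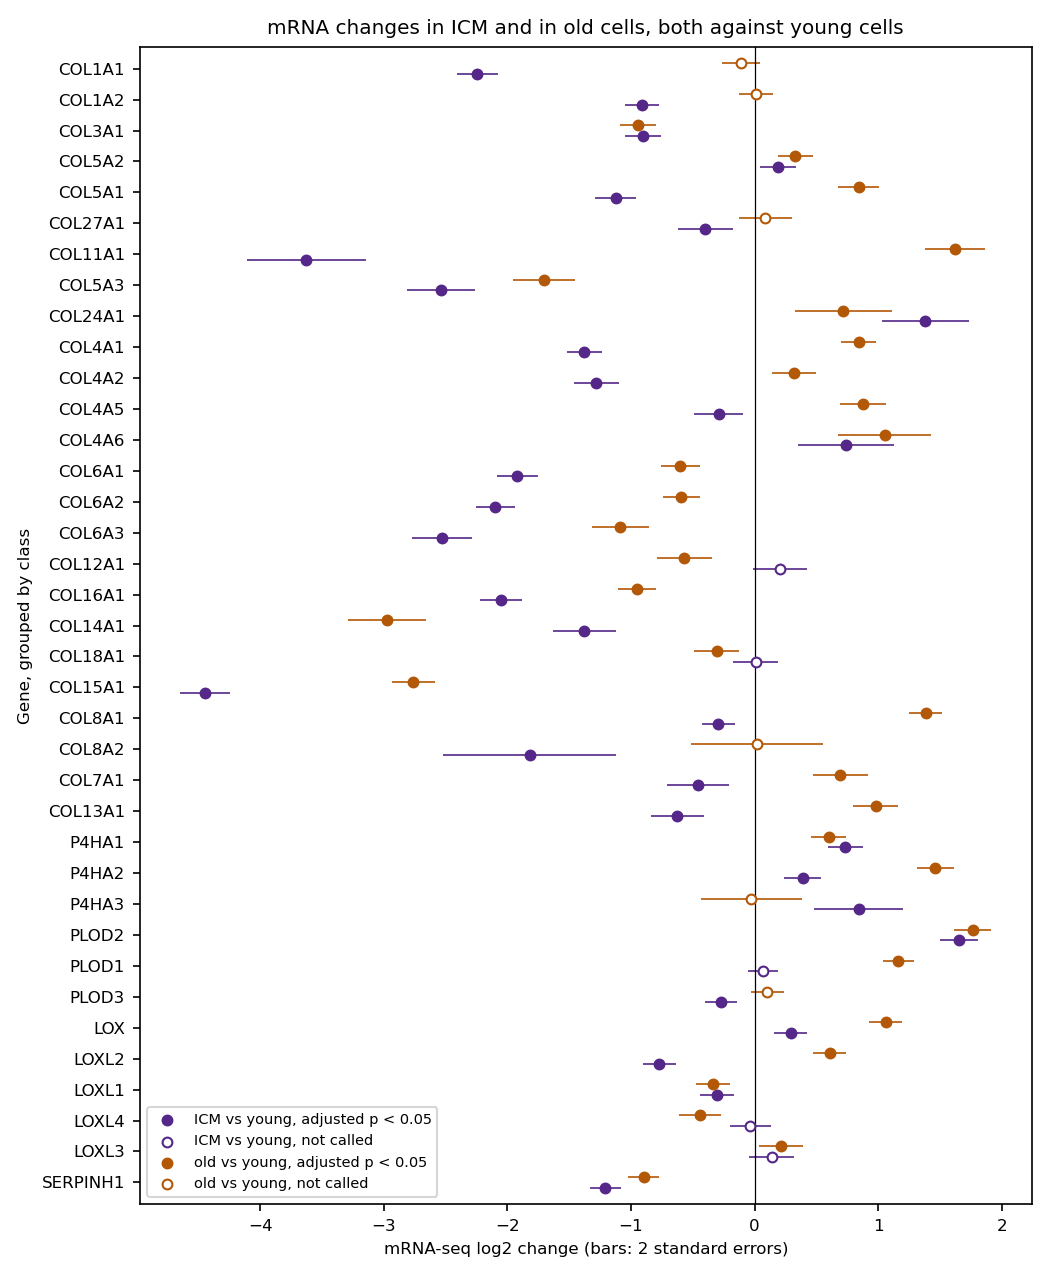
log2 change in mRNA of 37 members in ICM against young and in old against young cells, on a linear axis, with bars of 2 SE and filled points where the adjusted p is under 0.05. COL15A1 lies furthest to the left at -4.45 in ICM cells, and COL11A1 has the widest separation, at -3.63 in ICM and 1.62 in old cells.

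Among the fibrillar chains, which form the rope-like fibrils of most connective tissue, 7 of 9 fell and 2 rose in ICM against young cells, and 4 rose and 2 fell in old against young cells. Here and in the classes below, mRNA counts stand beside 34.9% of all genes up and 36.1% down in ICM against young cells. In old against young cells these shares were 32.4% and 33.7%. No class was tested as a whole against them. COL1A1 and COL1A2 encode the alpha 1 and alpha 2 chains of type I collagen, the most abundant protein of the fibroblast matrix. COL1A1, on the minus strand of GRCh37 chr17:48261462-48278992, measured 13266, 14910 and 15352 CPM in young, 14212, 11674 and 14438 CPM in old, and 3028, 2962 and 3201 CPM in ICM cells. All ICM values were far below the rest, and young and old cells overlapped. COL1A1 fell by 2.24 ± 0.08 (SE) on the log2 scale in ICM against young cells, 4.74-fold (edgeR adjusted p = 1.8e-16), whereas the old against young value was -0.11 ± 0.08 (edgeR adjusted p = 0.22). Its footprints showed the same order, with 20243, 20320 and 18774 CPM in young, 20260, 16579 and 13648 CPM in old, and 3971, 3901 and 9476 CPM in ICM cells. ICM 3 was the highest of the ICM libraries but stayed below all old and young libraries, and the ICM against young change in footprints was -1.81 ± 0.21 (edgeR adjusted p = 4.0e-08).

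COL1A2 fell less than COL1A1. It measured 7059, 7980 and 8357 CPM in young, 8034, 7491 and 8052 CPM in old and 4113, 4257 and 4072 CPM in ICM cells, a fall of 0.91 ± 0.07 in ICM against young cells (edgeR adjusted p = 6.9e-11) and a value of 0.01 in old against young cells. In footprints COL1A2 fell by 0.88 ± 0.17 in ICM against young cells (edgeR adjusted p = 0.00021), and the other footprint comparisons of this gene had adjusted p-values of 0.062 and 0.065. COL3A1, the type III chain that forms fine fibrils together with type I, behaved differently in old cells. Its mRNA measured 1890, 2217 and 2135 CPM in young, 1101, 991 and 1153 CPM in old and 1094, 1174 and 1067 CPM in ICM cells, so that old and ICM cells overlapped and both lay below young cells. It fell by 0.90 ± 0.07 in ICM and by 0.94 ± 0.07 in old cells (edgeR adjusted p = 1.9e-10 and 1.5e-10), and ICM against old cells gave 0.04.

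The type V chains, which set the diameter of type I fibrils, separated from each other. COL5A1, the alpha 1 chain on the plus strand of GRCh37 chr9:137533649-137736689, measured 561, 631 and 678 CPM in young, 1189, 950 and 1220 CPM in old and 279, 294 and 285 CPM in ICM cells. None of the conditions overlapped, and COL5A1 fell by 1.13 ± 0.08 in ICM and rose by 0.84 ± 0.08 in old against young cells (edgeR adjusted p = 5.6e-11 and 7.7e-09). COL5A2, the alpha 2 chain, measured 593, 679 and 705 CPM in young, 853, 766 and 863 in old and 743, 791 and 722 in ICM cells, and rose by 0.19 ± 0.07 in ICM and by 0.33 ± 0.07 in old cells (edgeR adjusted p = 0.021 and 0.00034). The smaller rise of COL5A2 in ICM cells was lost without ICM 2 or without young 1. Footprints of COL5A1 measured 1604, 901 and 879 CPM in young, 1476, 845 and 1102 in old and 384, 191 and 388 in ICM cells, a fall of 1.64 ± 0.26 in ICM against young cells (edgeR adjusted p = 1.0e-05). Old and young COL5A1 footprints overlapped, with a change of 0.23 (edgeR adjusted p = 0.41), and COL5A2 footprints passed in no comparison. Young 1, a library that stood apart, had the highest COL5A1 value, and ICM against old cells gave -1.86 for this gene. Without young 1, old 2 and ICM 3, COL5A1 had -1.55 in ICM against young and -2.12 in ICM against old cells.

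Minor fibrillar chains had the widest changes of the class. COL5A3, the third type V chain, measured 14.5, 14.7 and 14.6 CPM in young, 4.52, 4.15 and 4.82 in old and 2.40, 2.87 and 2.29 in ICM cells, and fell by 2.54 ± 0.14 in ICM and by 1.71 ± 0.13 in old cells. COL11A1, a type XI chain best known from cartilage, measured 9.31, 9.42 and 7.53 CPM in young, 26.9, 23.6 and 30.6 in old and 0.826, 0.740 and 0.509 in ICM cells. It fell by 3.63 ± 0.24 in ICM and rose by 1.62 ± 0.12 in old against young cells (edgeR adjusted p = 6.4e-12 and 8.4e-11), and ICM against old cells differed by -5.25 ± 0.19. COL24A1, a developmental fibrillar chain at 1.99 to 6.53 CPM, rose in both conditions, by 1.38 in ICM and 0.72 in old cells, the latter call being lost without cultures young 1, old 2 and ICM 3 (edgeR adjusted p = 0.057), and COL27A1, at 14.1 to 25.2 CPM, fell by 0.40 in ICM cells and had 0.08 in old cells.

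The type IV chains form the sheet-like network of basement membranes, and COL4A1 and COL4A2 supply its most common trimer. In mRNA-seq 3 of the 4 tested type IV chains fell and 1 rose in ICM against young cells, and 4 of 4 rose in old against young cells. COL4A1 measured 1135, 1197 and 1283 CPM in young, 2139, 1985 and 2357 CPM in old and 463, 483 and 447 CPM in ICM cells. No conditions overlapped, with a fall of 1.38 ± 0.07 in ICM and a rise of 0.84 ± 0.07 in old against young cells (edgeR adjusted p = 8.4e-14 and 5.5e-10). COL4A2 measured 1220, 1390 and 1539 CPM in young, 1708, 1492 and 1973 CPM in old and 550, 607 and 551 CPM in ICM cells, and fell by 1.28 ± 0.09 in ICM cells (edgeR adjusted p = 2.0e-11). Its rise in old cells, 0.32 ± 0.09, passed (edgeR adjusted p = 0.0033) although the old and young libraries overlapped. COL4A5, a chain of more restricted membranes, measured 28.2, 31.6 and 38.9 CPM in young, 61.0, 57.4 and 64.3 in old and 28.8, 26.7 and 25.4 in ICM cells, with a rise of 0.88 in old cells and a fall of 0.29 in ICM cells whose groups overlapped and which was lost without ICM 3 or without young 3. COL4A6 rose by 0.74 in ICM and by 1.05 in old cells at 2.85 to 7.97 CPM. COL4A4, with 4 reads in young, 38 in old and 8 in ICM cells, was not tested.

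Footprints on COL4A1 and COL4A2 fell in ICM cells, and the higher mRNA in old cells had no called footprint rise beside it. COL4A1 footprints measured 4120, 2619 and 2549 CPM in young, 3785, 2455 and 3042 in old and 1187, 709 and 2009 in ICM cells. ICM libraries lay below the rest, and old and young libraries interleaved. The fall in ICM against young cells was 1.27 ± 0.23 for COL4A1 and 1.15 ± 0.23 for COL4A2 (edgeR adjusted p = 7.1e-05 and 0.00027), and the old against young values were 0.08 and -0.21 (edgeR adjusted p = 0.80 and 0.46). ICM against old cells gave -1.35 and -0.94. Young 1, a library that stood apart, was the highest for COL4A1. Without young 1, old 2 and ICM 3, COL4A1 had -1.45 in ICM against young and -1.87 in ICM against old cells. COL4A2 had -1.50 and -1.54 there.

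COL4A1 and COL4A2 lie head to head on chromosome 13 with 126 bases between their start sites. These bases are upstream of both genes and are read on opposite strands. The shared stretch is shown because the mRNA of both genes moved in the same direction in each comparison. Windows of 30 bases from the RefSeq promoters on GRCh38.p14 are printed with CCAAT, or ATTGG where it lies on the other strand, in capitals.
COL4A1 (minus strand, chr13:110307167-110307196): gcagcgccaacaaATTGGggagctcggccc
COL4A2 (plus strand, chr13:110307166-110307195): cgggccgagctccCCAATttgttggcgctg
Both windows hold the same CCAAT match. Both promoters also hold GGGCGG, or CCGCCC on the other strand, in a window that covers the same bases for both genes and is again in capitals.
COL4A1 (minus strand, chr13:110307207-110307236): ccctttgaggcgCCGCCCgcgcaccgccgg
COL4A2 (plus strand, chr13:110307207-110307236): ccggcggtgcgcGGGCGGcgcctcaaaggg
Searching both strands of the 250 bases before each start, CCAAT was found in 32.0% of 35116 RefSeq promoters and in 10 of the 29 members with a promoter in the table, and GGGCGG in 42.6% of all promoters and in 22 of the 29. The motifs do not overlap each other in letters. COL4A6 and COL4A5 are a second head-to-head pair, on chromosome X with 1415 bases between their starts.

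Type VI collagen, a beaded filament made of alpha 1, alpha 2 and alpha 3 chains that surrounds cells, was the class that fell in every comparison of both assays, 3 of 3 chains each time. COL6A1 measured 2564, 2899 and 2974 CPM in young, 1907, 1623 and 2035 CPM in old and 709, 802 and 718 CPM in ICM cells. COL6A2 measured 2235, 2413 and 2395 CPM in young, 1619, 1370 and 1679 CPM in old and 522, 596 and 529 CPM in ICM cells. COL6A3 measured 1924, 2466 and 2841 CPM in young, 1254, 931 and 1223 CPM in old and 402, 470 and 382 CPM in ICM cells. For each chain young was above old and old above ICM cells with no overlap. In ICM against young cells COL6A1 fell by 1.92 ± 0.08, COL6A2 by 2.10 ± 0.08 and COL6A3 by 2.53 ± 0.12, 5.77-fold (edgeR adjusted p = 3.1e-15, 2.4e-16 and 2.0e-14). The changes in old against young cells were -0.60 ± 0.08, -0.59 ± 0.08 and -1.09 ± 0.11 (edgeR adjusted p = 8.1e-07, 3.9e-07 and 2.6e-08).

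Footprints on the type VI chains also fell in ICM cells, and the difference between footprint and mRNA change is given with translational efficiency. COL6A1 footprints measured 4516, 3503 and 3651 CPM in young, 2543, 1871 and 2159 in old and 1148, 1446 and 2032 in ICM cells. COL6A3 footprints measured 3843, 6265 and 6663 CPM in young, 3139, 2817 and 3345 in old and 1591, 2114 and 2854 in ICM cells. ICM 3 overlapped the old libraries for both genes. In ICM against young cells the footprint change was -1.38 ± 0.19 for COL6A1, -1.43 ± 0.20 for COL6A2 and -1.43 ± 0.19 for COL6A3 (edgeR adjusted p = 7.0e-07, 1.1e-06 and 6.4e-07). Old against young cells gave -0.78 ± 0.17, -0.53 ± 0.18 and -0.86 ± 0.18 (edgeR adjusted p = 0.00060, 0.021 and 0.00033), and ICM against old cells -0.60 ± 0.19, -0.90 ± 0.20 and -0.57 ± 0.19 (edgeR adjusted p = 0.028, 0.0014 and 0.048). The smaller of these calls were fragile: that of COL6A2 in old against young cells was lost without any 1 of old 1, old 2, old 3, young 2 or young 3, and those of COL6A1 and COL6A3 in ICM against old cells without any 1 of ICM 1, ICM 2, old 1, old 3, young 2 or young 3.

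Fibril-associated chains, which decorate the surface of fibrils, split by gene. COL12A1, whose protein bridges type I fibrils, was not called against young cells in ICM cells, with 909, 1213 and 1353 CPM in young, 802, 650 and 892 CPM in old and 1307, 1429 and 1272 CPM in ICM cells. ICM and young cells overlapped, and ICM lay above old cells. COL12A1 had 0.20 ± 0.11 in ICM against young cells (edgeR adjusted p = 0.10), fell by 0.57 ± 0.11 in old against young cells (edgeR adjusted p = 0.00011) and was 0.77 ± 0.11 higher in ICM than in old cells (edgeR adjusted p = 2.5e-06). Footprints of COL12A1 measured 1684, 3009 and 3230 CPM in young, 1610, 1630 and 1845 in old and 3015, 3588 and 3653 in ICM cells, and ICM exceeded old cells by 0.99 ± 0.18 (edgeR adjusted p = 0.00013). It was the only chain called up in footprints in ICM against old cells, and its footprint fall in old against young cells, 0.69 ± 0.18, was lost without young 2 or without young 3. COL14A1 measured 24.9, 34.8 and 30.9 CPM in young, 3.44, 3.41 and 4.82 in old and 10.7, 14.1 and 10.7 in ICM cells, so that old cells were lowest. It fell by 2.97 ± 0.16 in old cells, 7.85-fold, and by 1.38 ± 0.13 in ICM cells (edgeR adjusted p = 2.6e-13 and 1.8e-09). COL16A1 measured 79.7, 77.9 and 81.7 CPM in young, 37.1, 39.4 and 46.9 in old and 18.5, 20.2 and 19.0 in ICM cells, and fell by 2.05 ± 0.08 in ICM and by 0.95 ± 0.08 in old cells. COL16A1 footprints fell by 1.79 in ICM cells, a call lost without ICM 1, and by 1.11 in old cells, a call lost without young 2. The ICM values, 29.6, 27.3 and 160 CPM, rest on 15 footprints. ICM 3 overlapped the young libraries, at 178, 200 and 141 CPM.

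COL15A1, a multiplexin of the zone next to basement membranes, had the largest mRNA fall of any member in ICM against young cells. It measured 194, 218 and 198 CPM in young, 34.9, 29.1 and 26.5 CPM in old and 9.54, 10.5 and 7.97 CPM in ICM cells. The conditions were far apart, with a fall of 4.45 ± 0.10 in ICM cells, 21.8-fold, and of 2.76 ± 0.09 in old cells, 6.78-fold (edgeR adjusted p = 4.7e-20 and 4.5e-17). Footprints were also far below young cells in both conditions, at 456, 374 and 407 CPM in young, 54.0, 80.5 and 61.6 in old and 9.85, 68.2 and 68.5 in ICM cells. ICM 2 and ICM 3 lay within the range of old cells, and the footprint difference between ICM and old cells was not called. The ICM values rest on 10 footprints over the 3 libraries, against 896 in young and 110 in old cells. COL18A1, the other multiplexin and the source of the fragment endostatin, had 0.01 in ICM cells and fell by 0.31 in old cells with overlapping groups.

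The remaining chains were among those that parted between ICM and old cells. COL8A1, a network-forming chain of vessel walls, measured 183, 180 and 203 CPM in young, 488, 464 and 527 CPM in old and 154, 157 and 151 CPM in ICM cells. It rose by 1.38 ± 0.07 in old and fell by 0.30 ± 0.07 in ICM against young cells (edgeR adjusted p = 5.1e-14 and 0.00047), and its footprints rose by 0.93 ± 0.20 in old cells (edgeR adjusted p = 0.00051), the only chain called up there. That footprint call was lost without old 1 or without young 3. COL7A1, which builds the anchoring fibrils of skin, measured 15.9, 17 and 20.3 CPM in young, 31.0, 24.4 and 31.8 in old and 11.6, 13.7 and 13.7 in ICM cells. COL13A1, a membrane-spanning chain, measured 17.1, 15.8 and 17.7 CPM in young, 32.0, 32.5 and 35.1 in old and 11.9, 9.71 and 11.0 in ICM cells. Both rose in old cells, by 0.69 ± 0.11 and 0.98 ± 0.09, and fell in ICM cells, by 0.46 ± 0.12 and 0.62 ± 0.11, with no overlap between conditions for either gene. COL8A2, at 0.370 to 2.47 CPM, fell by 1.82 in ICM cells and had 0.02 in old cells.

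Prolyl 4-hydroxylase alpha subunits, the catalytic part of the enzyme that stabilises the helix, rose in ICM cells, 3 of 3, and in old cells, 2 of 3. P4HA1, the main subunit in fibroblasts, measured 163, 174 and 190 CPM in young, 253, 291 and 254 CPM in old and 302, 283 and 293 CPM in ICM cells. It rose by 0.73 ± 0.07 in ICM and by 0.60 ± 0.07 in old cells (edgeR adjusted p = 3.8e-09 and 1.3e-07). P4HA2 measured 121, 113 and 120 CPM in young, 337, 349 and 287 CPM in old and 148, 166 and 149 CPM in ICM cells, with a rise of 1.46 ± 0.07 in old and of 0.39 ± 0.08 in ICM cells (edgeR adjusted p = 1.5e-13 and 8.6e-05). P4HA3 measured 4.34, 5.32 and 4.86 CPM in young, 4.84, 4.52 and 5.10 in old and 8.64, 11.5 and 6.36 in ICM cells, so that only ICM cells were higher, by 0.84 ± 0.18. Footprints of P4HA1 and P4HA2 also rose in both conditions, P4HA2 by 1.53 ± 0.19 in old and 0.79 ± 0.23 in ICM cells and P4HA1 by 0.50 ± 0.18 and 0.63 ± 0.21. The P4HA1 footprint call in ICM cells was lost without the 3 libraries that stood apart and without any 1 library except ICM 2, and the P4HA2 call in ICM cells without ICM 1, ICM 2 or young 2. In old cells the P4HA1 footprint call was lost without any 1 of old 1, old 3 or the young libraries.

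Lysyl hydroxylases differed by gene. PLOD2, which hydroxylates the lysines of the telopeptides, was the most strongly raised member, with 319, 329 and 389 CPM in young, 1099, 1263 and 1157 CPM in old and 1122, 1037 and 1110 CPM in ICM cells. Old and ICM cells overlapped and lay above all young libraries, a rise of 1.76 ± 0.08 in old and of 1.66 ± 0.08 in ICM cells, 3.39-fold and 3.15-fold (edgeR adjusted p = 9.6e-15 and 1.0e-14). PLOD2 footprints measured 456, 612 and 655 CPM in young, 1540, 1549 and 1412 in old and 1823, 1705 and 1484 in ICM cells and rose by 1.30 ± 0.17 and 1.48 ± 0.18. PLOD1, which acts on the helical lysines, measured 447, 461 and 449 CPM in young, 1064, 1006 and 970 CPM in old and 463, 500 and 458 CPM in ICM cells. It rose by 1.16 ± 0.06 in old cells (edgeR adjusted p = 3.1e-13) and had 0.07 in ICM cells, and its footprints rose by 1.50 ± 0.17 in old cells. PLOD3, which also adds sugars to hydroxylysine, stayed between 124 and 176 CPM and fell by 0.27 ± 0.07 in ICM cells (edgeR adjusted p = 0.00080), while its footprints rose by 0.68 ± 0.21 in old cells, a call lost without any 1 of old 1, old 3, young 2 or young 3.

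Lysyl oxidases, the secreted enzymes that start cross-linking, rose in old cells for 3 of 5 and fell for 2. LOX measured 925, 973 and 1109 CPM in young, 2088, 2095 and 2088 CPM in old and 1215, 1217 and 1249 CPM in ICM cells, 3 levels with no overlap. It rose by 1.06 ± 0.07 in old and by 0.29 ± 0.07 in ICM cells (edgeR adjusted p = 5.5e-12 and 0.00050), and its footprints by 0.95 ± 0.16 and 0.55 ± 0.16, the latter lost without ICM 1 or without young 2. LOXL2, the family member known for acting on basement membrane collagen, measured 946, 1026 and 1073 CPM in young, 1601, 1437 and 1599 CPM in old and 578, 607 and 598 CPM in ICM cells. It was the enzyme called in opposite directions, up by 0.61 ± 0.07 in old and down in ICM cells, with a log2 change of -0.77 ± 0.07 (edgeR adjusted p = 3.7e-08 and 5.9e-10). LOXL2 footprints measured 1406, 1748 and 1789 CPM in young, 3496, 2998 and 3526 in old and 1252, 1255 and 1073 in ICM cells, a rise of 1.0 ± 0.16 in old cells and a fall of 0.48 ± 0.17 in ICM cells that was lost without any 1 ICM library, young 2 or young 3. LOXL1, LOXL3 and LOXL4, at 154 to 220, 23.6 to 30.5 and 24.9 to 37 CPM, had log2 values from -0.44 to 0.21 against young cells, and the rise of LOXL3 in old cells, 0.21, was lost without any 1 of old 1, old 2 or the young libraries.

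SERPINH1, the gene of the collagen chaperone HSP47, fell in mRNA in both conditions. It measured 1338, 1457 and 1477 CPM in young, 799, 743 and 752 CPM in old and 610, 602 and 635 CPM in ICM cells. The conditions did not overlap, and SERPINH1 fell by 1.21 ± 0.06 in ICM and by 0.90 ± 0.06 in old cells (edgeR adjusted p = 8.8e-14 and 2.7e-11). Its footprints measured 2080, 2194 and 2528 CPM in young, 1819, 2032 and 1993 in old and 1695, 2060 and 1895 in ICM cells. Young cells were highest here too, but the changes were -0.30 ± 0.16 and -0.24 ± 0.16 (edgeR adjusted p = 0.19 and 0.23).

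Promoter windows are shown for PLOD2, P4HA1 and LOX, 3 enzyme genes that rose in both conditions, and for SERPINH1, which fell in both. They hold ACGTG, or CACGT on the other strand, the core of the hypoxia response element, printed in capitals and taken from RefSeq on GRCh38.p14.
PLOD2 (minus strand, chr3:146161314-146161343): gcaaacagtccagACGTGgggcccaggagg
P4HA1 (minus strand, chr10:73096936-73096965): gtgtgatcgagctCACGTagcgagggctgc
LOX (minus strand, chr5:122077275-122077304): atgtggcttctcgACGTGgctgcctgggcg
SERPINH1 (plus strand, chr11:75562276-75562305): cgagagcgagagtCACGTcccggcgctagc
The motif occurred on either strand in the 250 bases before the start of 18.5% of the 35116 promoters and of 7 of the 29 members, the other 3 being COL5A1, COL12A1 and COL15A1. Its holders thus include members called up, called down and not called in ICM cells, and a match describes the letters only. P4HA2, COL4A6 and COL24A1, whose mRNA also rose in both conditions, had no match in the searched bases.

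In Ribo-seq, 26 members had enough footprints to test. In ICM against young cells 4 rose and 12 fell, where 13.7% of 4643 genes rose and 12.9% fell. In old against young cells 8 rose and 7 fell, where 19.3% rose and 17% fell, and in ICM against old cells 1 rose and 12 fell, where 5.79% rose and 7.62% fell. By role, 11 of 16 chains were called in ICM against young cells, each of them down, while 1 of 10 enzyme and chaperone genes fell and 4 rose. Against young cells, old cells had 7 chains down and 1 up, and the 7 enzyme genes called were each up. The median footprint change was -1.23 for chains and 0.41 for enzyme and chaperone genes in ICM against young cells, and -0.36 and 0.81 in old against young cells, beside 0.00 and 0.02 for all genes. Without young 1, old 2 and ICM 3, where 31 members could be tested, the counts up and down were 3 and 15, 11 and 9, and 1 and 16 in the same order of comparisons.

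Translational efficiency, the change in footprints beyond the change in mRNA, was tested as an interaction between assay and condition with the culture as a block. It was called for 2 of 26 members in ICM against young cells, both up, where 1.41% of 4618 genes were up and 1.04% down. For old against young cells 1 member was called, up, where 0.845% of genes were up and 0.606% down. In ICM against old cells 0 members were called by edgeR, where 0.065% of genes were up and 0.195% down. In that comparison 5 members had an unadjusted p under 0.05, DESeq2 also called 0, and relative log expression scaling called 1. The median over the 26 members was 0.23, -0.03 and 0.23, beside 0.06, 0.05 and 0.00 for all genes tested.

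SERPINH1 was called in both comparisons with young cells. Dividing its footprint CPM by its mRNA CPM in the same culture gave 1.55, 1.51 and 1.71 in young, 2.28, 2.74 and 2.65 in old and 2.78, 3.42 and 2.99 in ICM cells. Young cells were lowest and ICM cells highest, without overlap. The log2 change in efficiency was 0.93 ± 0.17 in ICM and 0.72 ± 0.17 in old cells (edgeR adjusted p = 0.00066 and 0.011), and without the 3 libraries that stood apart it was 0.79 and 0.59. The ICM against young call was lost without ICM 2 or without young 2, with no filter on low counts, at 0.70 (edgeR adjusted p = 0.17), and when Ribo-seq libraries were thinned to 46170 footprints, at 0.60 (edgeR adjusted p = 0.18). The old against young call was lost without any 1 of old 1, old 3 or the young libraries, with no filter on low counts, at 0.70 (edgeR adjusted p = 0.39), and with thinned libraries, at 0.29 (edgeR adjusted p = 0.81).

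COL6A3 was the other member called. Its ratio of footprint to mRNA CPM was 2.00, 2.54 and 2.35 in young, 2.50, 3.02 and 2.74 in old and 3.96, 4.50 and 7.48 in ICM cells. ICM cells were above all others, with ICM 3 the highest. The change was 1.12 ± 0.19 in ICM against young cells (edgeR adjusted p = 0.00020) and 0.66 without young 1, old 2 and ICM 3 (edgeR adjusted p = 0.0051). It was 0.30 in old against young cells (edgeR adjusted p = 0.49) and 0.81 ± 0.19 in ICM against old cells (edgeR adjusted p = 0.055). For COL6A1 and COL6A2 the ICM against young values were 0.54 and 0.66 (edgeR adjusted p = 0.15 and 0.089). COL4A1 went the other way in old against young cells at -0.70 ± 0.22 without passing (edgeR adjusted p = 0.12), with ratios of 3.63, 2.19 and 1.99 in young, 1.77, 1.24 and 1.29 in old and 2.57, 1.47 and 4.50 in ICM cells.

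**Figure D3:**
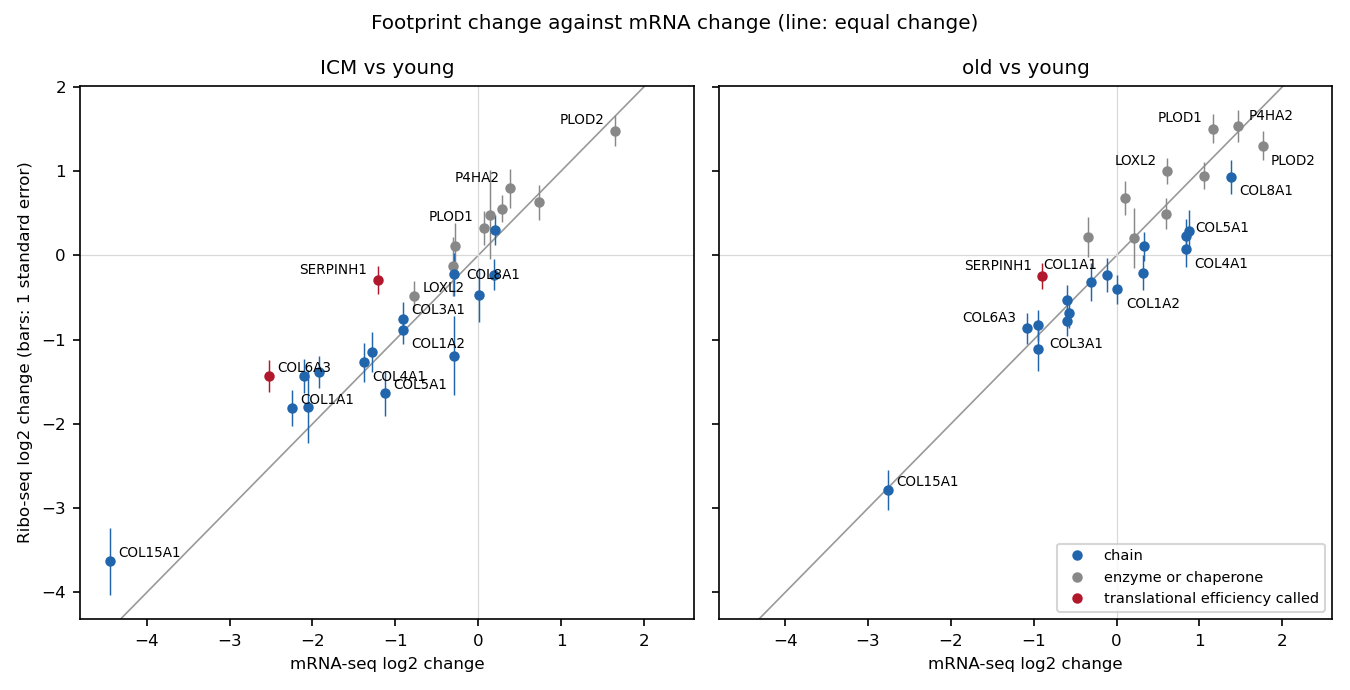
log2 change in footprints (vertical) against log2 change in mRNA (horizontal) for 26 members, 1 panel for each comparison with young cells, with bars of 1 SE and red points where translational efficiency was called. SERPINH1 lies above the diagonal in both panels, with mRNA changes of -1.21 and -0.90 and footprint changes of -0.30 and -0.24.

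Chains that share a trimer changed in proportion to one another to different degrees. The ratio was taken on CDS reads within a library, so depth cancels, and since the chains differ in length only its change is read. For type I collagen, COL1A1 to COL1A2 was 1.88, 1.86 and 1.85 in young, 1.74, 1.53 and 1.77 in old and 0.731, 0.691 and 0.787 in ICM cells in mRNA, and 1.59, 1.39 and 1.41, 1.67, 1.61 and 1.63, and 0.629, 0.676 and 0.920 in footprints. In both assays the ICM ratio lay below all others, by -1.34 in mRNA and -1.0 in footprints against young cells. Old cells differed from young cells by -0.15 in mRNA and 0.17 in footprints. For type V collagen, COL5A1 to COL5A2 was 0.805, 0.789 and 0.824 in young, 1.17, 1.05 and 1.22 in old and 0.322, 0.305 and 0.335 in ICM cells in mRNA. The ICM ratio differed from that of young cells by -1.33 in mRNA and -1.58 in footprints, and the old ratio by 0.50 in mRNA and -0.06 in footprints, the latter with overlapping libraries.

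The type IV ratio COL4A1 to COL4A2 was 0.966, 0.907 and 0.836 in young, 1.31, 1.36 and 1.25 in old and 0.866, 0.838 and 0.847 in ICM cells in mRNA. It was thus higher in old cells by 0.53 and differed by -0.08 in ICM cells, where the libraries overlapped (exact permutation p = 0.4). In footprints the type IV values were 0.25 in old (exact p = 0.2) and -0.14 in ICM cells (exact p = 0.4). For type VI collagen COL6A3 to COL6A1 in mRNA was lower than in young cells in ICM cells by -0.63 and in old cells by -0.47, while the footprint ratio changed by 0.01 and 0.02 with overlapping libraries (exact p = 1 for ICM against old cells). COL6A1 to COL6A2 changed by 0.21 in mRNA and 0.06 in footprints in ICM against young cells. Each ratio whose libraries did not overlap had the smallest exact permutation p of 0.1, and over the 30 ratio comparisons its Benjamini-Hochberg value was 0.167.

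**Figure D4:**
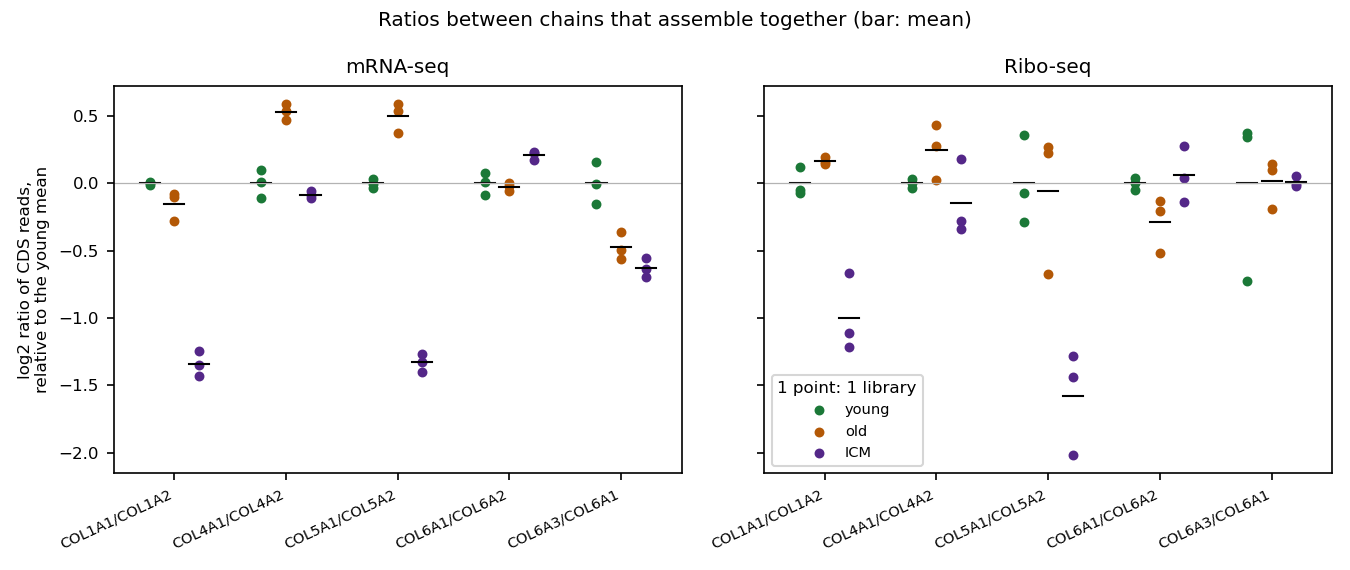
log2 ratio of CDS reads between chains of one collagen type in each library, relative to the mean of the young libraries, for 5 pairs in mRNA-seq and Ribo-seq. The ICM libraries lie lowest for COL1A1 to COL1A2 and for COL5A1 to COL5A2 in both assays, with mean log2 values of -1.34 and -1.33 in mRNA.

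Set against the chains they act on, hydroxylase and oxidase reads were higher in both conditions than in young cells. This ratio, in CDS reads per 100 CDS reads of all chains, was chosen after the values had been seen and is given as a description. It moves with its denominator: in ICM against young mRNA the chain share differed by -1.42 and the share of the 12 enzyme and chaperone genes by -0.02. P4HA genes had 0.750, 0.646 and 0.641 reads in young, 1.49, 1.85 and 1.29 in old and 2.96, 2.89 and 2.87 in ICM cells in mRNA. PLOD genes had 2.45, 2.24 and 2.19 in young, 5.98, 7.15 and 5.59 in old and 11.5, 10.8 and 11.1 in ICM cells. The LOX family had 4.61, 4.34 and 4.23 in young, 8.01, 8.44 and 7.66 in old and 10.3, 10.3 and 10.6 in ICM cells. In mRNA all 3 sets were lowest in young and highest in ICM cells, with no overlap. In ICM against young cells the ratio was 4.30-fold, 4.85-fold and 2.37-fold higher, and in old against young cells 2.26-fold, 2.71-fold and 1.83-fold higher, for the P4HA, PLOD and LOX sets in turn. In footprints the ICM libraries had 4.33, 4.24 and 3.02 P4HA reads, 11.2, 10.7 and 5.60 PLOD reads and 16.7, 14.8 and 8.23 LOX family reads, with ICM 3 lowest each time, against at most 1.08, 2.25 and 5.97 in young cells. Old cells had 2.35, 2.01 and 3.08 P4HA reads, 5.64, 6.38 and 7.38 PLOD reads and 12.2, 12.8 and 15.5 LOX family reads in footprints, which overlapped the ICM values for each set. The footprint ratio in ICM against old cells was 0.64 for P4HA (exact permutation p = 0.2), 0.44 for PLOD (exact p = 0.4) and -0.08 for the LOX family (exact p = 0.9) on the log2 scale.

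SERPINH1 parted from the enzymes in this ratio. In mRNA it had 2.88, 2.72 and 2.71 reads per 100 chain reads in young, 1.69, 1.83 and 1.52 in old and 3.36, 3.16 and 3.46 in ICM cells, so that old cells were lowest, 1.65-fold under young cells, and ICM cells 1.20-fold above them. In footprints it had 3.22, 3.44 and 4.20 in young, 3.27, 4.33 and 4.68 in old and 7.19, 8.90 and 4.65 in ICM cells. Old and young cells overlapped in footprints (exact permutation p = 0.4), and ICM cells were 1.86-fold above young cells (exact p = 0.1, Benjamini-Hochberg 0.126 over 24 comparisons).

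**Figure D5:**
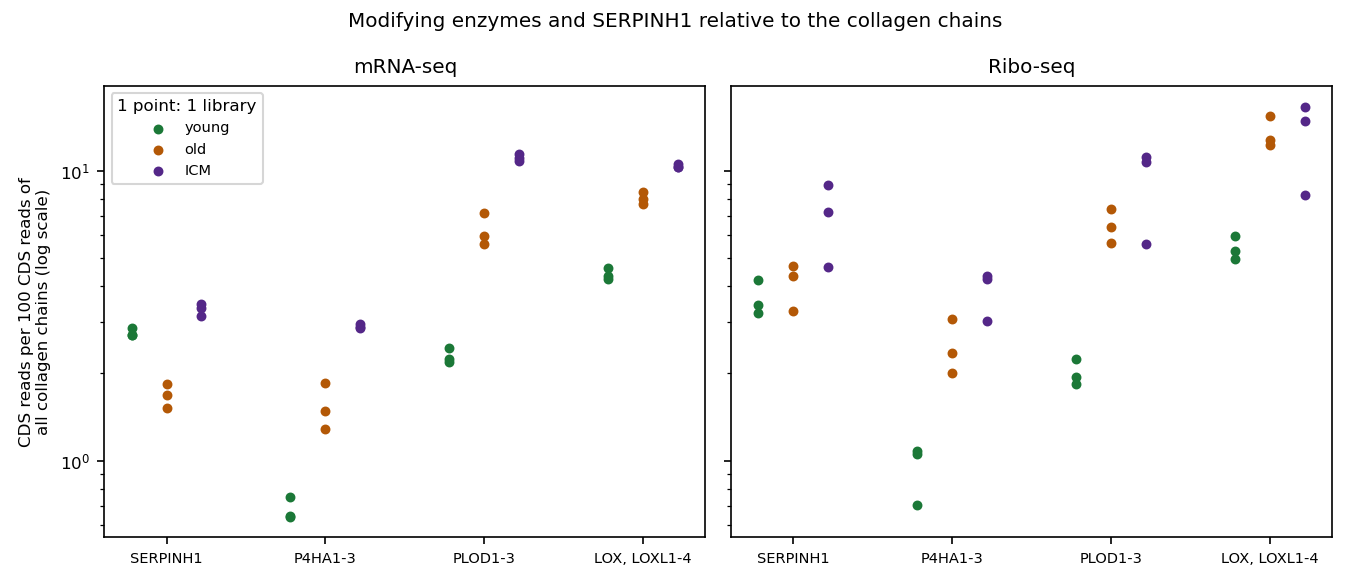
CDS reads of the P4HA, PLOD and LOX gene sets and of SERPINH1 per 100 CDS reads of collagen chains, in each library, on a log axis, for mRNA-seq and Ribo-seq. In mRNA-seq the PLOD set rises from 2.19 to 2.45 in young to 5.59 to 7.15 in old and 10.8 to 11.5 in ICM cells, and SERPINH1 is lowest in old cells at 1.52 to 1.83.

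Reads of the members lay mostly on coding sequence. Chains together had 86.8 to 89.3% of their mRNA reads and 96.7 to 99.4% of their footprints on CDS. The 3′ UTR share of COL1A1 mRNA reads was 4.99 to 6.05% in young, 6.66 to 8.20% in old and 4.30 to 5.34% in ICM cells, so that old cells lay above young cells. Over all genes the share was also higher in old cells, 26.8 to 28.9% against 24.7 to 25.1% in young and 24.6 to 26.1% in ICM cells. LOXL3 had 29.8 to 33.2% in young, 35.8 to 38.9% in old and 35.0 to 38.1% in ICM cells, and P4HA2 had 8.72 to 10.1% in ICM against 11.5 to 13.3% in young cells. LOX, with 33.5 to 43.5% over all libraries, overlapped between conditions.

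Genes that act before and after the members on the same pathway were counted from lists chosen with earlier results known. The counts stand beside 34.9% of all genes up and 36.1% down in ICM against young cells, and 32.4% up and 33.7% down in old against young cells, and no list was tested as a whole. Of 12 tested genes for other collagen modification and folding, 5 rose and 3 fell in ICM against young cells and 8 rose and 1 fell in old against young cells in mRNA. P3H2, a prolyl 3-hydroxylase, rose by 1.03 in ICM and 1.97 in old cells, and P4HB, the partner subunit of prolyl 4-hydroxylase, rose by 0.57 and 0.66. COLGALT1, which attaches galactose to hydroxylysine, fell by 0.64 in ICM cells and rose by 0.21 in old cells. For procollagen export, 9 of 12 genes were called in ICM cells and 6 in old cells, each of them up. SAR1B rose by 1.10 and 0.59, and MIA3, which loads procollagen into carriers, rose by 1.09 in ICM cells and had -0.13 in old cells.

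Genes of propeptide cleavage split, 4 up and 4 down of 8 tested in ICM cells. PCOLCE, the enhancer of C-propeptide removal, fell by 3.58 in ICM and by 2.31 in old cells, and PCOLCE2, its relative, rose by 2.12 in ICM and fell by 1.87 in old cells. ADAMTS2, which removes the N-propeptide, fell by 1.56 and by 0.61. Of 8 collagen receptor genes tested, 5 fell and 1 rose in ICM cells, and 6 were called in old cells, each of them up. ITGA1 and ITGA11, alpha subunits of collagen-binding integrins, had -1.52 and -1.20 in ICM cells and 0.50 and 0.47 in old cells. Of 9 genes for proline and glycine supply, 6 fell in each condition and 3 and 1 rose. PHGDH, the entry enzyme of serine and glycine synthesis, fell by 2.53 in ICM and by 2.28 in old cells, and PSAT1 by 2.07 and by 1.54.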

How the data were processed

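The files hold 18 libraries of IMR90 cells, 3 cultures for each of 3 conditions by mRNA-seq of polyadenylated RNA and by Ribo-seq, in which fragments protected by ribosomes are sequenced. Both assays started from the same lysate of a culture, according to the methods of the study. The authors deposited, for each library, estimated counts per gene symbol on the 5′ UTR, CDS and 3′ UTR, in which 14.1 to 23.2% of the values that are not 0 are not whole. How reads that match several features were treated is not given in the sources used here, so reads of chains with similar sequence may be shared between them. STAR 2.6.0c, featureCounts and GRCh37 are named in the submitters' processing notes, without the step each served.

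Counts were rounded. The 3 parts were summed for mRNA-seq, and CDS was used alone for Ribo-seq, after the study's methods. edgeR 4.0.16 in R 4.3.3 was used with trimmed mean scaling, its own filter on low counts and the quasi-likelihood test over all genes, the 3 conditions fitted together and p-values adjusted by Benjamini-Hochberg at 0.05. Translational efficiency was the interaction of assay and condition with the culture as a block. anota2seq, which the study used for this step, was not used here. DESeq2 1.42.0 was an alternative. Other alternatives were relative log expression scaling, no filter, other thresholds, the CDS alone for mRNA, thinned Ribo-seq, only the 2 conditions compared, no block, and leaving out libraries. Sums and ratios were tested with a two-sided exact permutation test, and scripts were tested on simulated data. p-values measure the spread between the 3 cultures of a condition, for which the number of isolates is not stated. Intervals of counting error were not used, and limits from counts of 3 cover counting error only.

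Members and gene lists were chosen with earlier results of these data known. Named were the 8 members highest per codon, up to 4 rises and 4 falls for each comparison and measure among called members of at least 5 CPM without overlap, members called in opposite directions, and the enzymes, with COL5A2, COL24A1, COL27A1, COL4A4, COL4A6, COL18A1 and COL8A2 added to complete the classes after their values were seen. Pathway genes were named for size of change, up to 3 called in each direction of a list, with P4HB, COLGALT1, ITGA11 and MIA3 chosen after their values were seen where they fell outside this. Coding lengths and Gly-X-Y units come from GENCODE canonical transcripts on GRCh37. Promoters of 29 of 38 members were matched by symbol in the RefSeq table on GRCh38.p14, and COL1A1, COL1A2, COL3A1, COL5A2, COL6A1, COL8A1, COL14A1, LOXL2 and P4HA3 were not matched. Culture numbers were not used to pair conditions, since deviations of equally numbered libraries correlated at -0.093 to 0.129 in mRNA-seq and 0.002 to 0.039 in Ribo-seq.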

Additional observations from a re-analysis of the deposited data

How the results depend on the processing

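No called value changed sign in any alternative. In mRNA-seq 1942 of the member values stayed on their side of the threshold, 37 became weaker and 16 stronger, in Ribo-seq 1253, 103 and 30, and in translational efficiency 1436, 11 and 17. Leaving out 1 library at a time, members called in mRNA-seq numbered 31 to 32 in ICM against young, 30 to 32 in old against young and 30 to 33 in ICM against old cells, and in Ribo-seq 12 to 17, 10 to 18 and 9 to 16. Translational efficiency calls numbered 1 to 2, 0 to 2 and 0 to 1 in the same order. These fits could test 26 to 31 members in Ribo-seq and in translational efficiency, against 26 in the main fit. Of the calls, 5 of 16, 6 of 15 and 4 of 13 in Ribo-seq were lost in at least 1 such fit. The summed chain share ranged from -1.48 to -1.37, -0.30 to -0.15 and -1.27 to -1.13 in mRNA-seq and from -1.43 to -1.0, -0.57 to -0.37 and -0.95 to -0.52 in Ribo-seq. Without COL1A1, COL1A2 and COL3A1 the mRNA sums were -1.24 in ICM against young and -0.99 in ICM against old cells. Ribo-seq thinned to the smallest library called 7 members in ICM against old cells, and fewer members (21) could be tested.

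Translational efficiency counts were small and moved with most settings. At an adjusted p under 0.15 they were 4 in ICM against young, 2 in old against young and 2 in ICM against old cells, by construction of the threshold. With no filter on low counts they were 1 in ICM against young and 0 in old against young cells, and with thinned Ribo-seq 1 and 0. Fitting only the 2 conditions compared gave 3 in old against young cells, COL4A1 among them and down, and relative log expression scaling gave 1 in ICM against old cells, COL6A3. Without the replicate block, 5 members were called in old against young cells. The block changed no other count of members by over 1.5 times, and mRNA-seq and Ribo-seq deviations of the same culture correlated at -0.071 to 0.119, so the pairing rests on the study's description. The causes were not tested. In Ribo-seq 3 counts correspond to up to 64.9 CPM without trimmed mean scaling.

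When the block was added or removed, with the same genes tested, calls over all genes moved more in proportion than those of members. With a replicate block in Ribo-seq, 741 genes against 1236 were called in ICM against young, 653 against 1685 in old against young and 418 against 623 in ICM against old cells, and without the block efficiency calls were 308 against 113, 462 against 67 and 53 against 12. Over all settings the counts in the same order ranged from 257 to 1865, 181 to 3142 and 192 to 1020 in Ribo-seq, from 16 to 318, 6 to 462 and 3 to 61 in efficiency and from 5055 to 10345, 4289 to 9792 and 3870 to 9499 in mRNA-seq, the lowest Ribo-seq counts being those with thinned libraries. The settings also differed in the number of genes tested. In Ribo-seq it was 1168 with thinned libraries and 13714 with no filter, against 4643 in the main fit. The ranges therefore mix the number of genes tested with the share called.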

Other observations

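COL2A1, the fibrillar chain of cartilage, is under the read minimum in mRNA-seq, with 12.2 reads over 9 libraries and at most 0.39 CPM in any of them, and is described here because its footprints, seen after the members were chosen, were more numerous. Its Ribo-seq CDS counts summed to 519.8 over 9 libraries and were not whole numbers in 7 of the 9. Without trimmed mean scaling, the level was 27.6, 99.5 and 110 CPM in young, 103, 183 and 111 CPM in old and 29.6, 44.3 and 64.9 CPM in ICM cells. ICM libraries lay below the old libraries, and young 1 lay below the other young libraries and rested on 1.5 reads, with 3 reads in ICM 3.

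Genes of collagen breakdown and of TGF-beta signalling, the main inducer of collagen synthesis in fibroblasts, gave mixed counts in mRNA-seq, read beside 34.9% of all genes up and 36.1% down in ICM against young cells and 32.4% and 33.7% in old against young cells. Of 6 tested breakdown genes, 2 rose and 4 fell in ICM against young cells and 3 rose and 1 fell in old against young cells. CTSL, a lysosomal protease, rose by 1.77 in ICM and by 0.19 in old cells, and MMP1, the interstitial collagenase, rose by 1.58 in ICM cells and had 0.17 in old cells. MMP2, a gelatinase, fell by 1.01 and by 0.87, and MMP14, which activates it, fell by 0.91 in ICM and rose by 0.34 in old cells. Of 10 TGF-beta genes, 5 rose and 3 fell in ICM cells and 6 rose and 4 fell in old cells. CCN2, a target that marks fibrosis, rose by 1.13 and 1.48, and TGFBR2, a receptor, by 0.92 and 2.30. TGFB3, a ligand, had 0.07 in ICM cells and fell by 1.61 in old cells, while TGFB2, another ligand, rose by 0.36 and 1.92.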
